A study of Cyanidioschyzon merolae strain 10D with 6 samples.

Results

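Cyanidioschyzon merolae 10D is a unicellular red alga with a compact nuclear genome of 20 chromosomes. Among its annotated transposable element (TE) copies, 606 nuclear copies carry the family label TcMar-ISRm11, and 602 of them start and end at 20000 bp or more from both chromosome ends. These 602 interior copies, of 5074 TE copies in all, are described here. The rule that chose them used the annotation and no read counts, but it was set with earlier results of these data known. Poly(A) RNA was sequenced from 3 samples of the wild type 10D and 3 samples of the mutant line Cme(z)-1, both grown in liquid culture in acidic Allen's medium under constant white light. All titles of the mutant samples name the same line, and the labels do not say whether samples of a group came from separate cultures. The spread the tests rest on is that between samples and could be technical. Loss of E(z) and any further difference carried by the mutant line cannot be told apart.

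TcMar elements are DNA transposons of the Tc1/mariner superfamily, which move by a cut-and-paste mechanism: a transposase binds the ends of the element, cuts it out and inserts it at a new site. Many copies in a genome are shortened or mutated and encode no transposase, and reads over such copies may come from transcripts that start outside them. E(z) is the catalytic subunit of Polycomb Repressive Complex 2 (PRC2), which methylates a lysine of histone H3, a mark of silenced chromatin that lies over genes in animals and plants and also over TEs in several unicellular eukaryotes. The comparison of both lines asks how TE transcripts differ where this complex is lost.

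The libraries held 7860491 to 10754544 counts, of which 57393 to 81631 fell in the 602 copies, or 0.698% to 0.882% of each library. The E(z) gene CMQ156C (chromosome 17, 379207 to 381546) was counted 1776, 1533 and 1770 times in wild-type replicates 1 to 3 and 0 times in each mutant library, which allows up to 0.362 CPM (counts scaled to a common library total) before TMM scaling in the shallowest of these. Mutant replicate 2 held the highest summed level of the copies, and sums that change with it are also given without it. The deposited tables do not say how reads that fit several copies were counted, so the level of any single copy with near-identical relatives is uncertain. The libraries are unstranded, and reads of a copy, of an overlapping gene and of an antisense transcript cannot be told apart.

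The 602 copies belonged to 5 repeat families, and 3 of these held nearly all of them. rnd-1_family-32 had 263 copies, rnd-1_family-7 had 169, rnd-1_family-3 had 156, rnd-1_family-13 had 11 and rnd-1_family-12 had 3. Every one of the 20 nuclear chromosomes carried between 18 and 52 copies. Copy lengths ran from 81 to 4515 bp with a median of 733 bp, and each large family had its own preferred length. In rnd-1_family-32, 173 of 263 copies (65.8%) were 701 to 753 bp long, and no copy was longer. In rnd-1_family-7, 88 of 169 copies (52.1%) were 1417 to 1547 bp long. In rnd-1_family-3 there were 2 such peaks, with 53 copies of 1063 to 1159 bp and 56 copies of 1316 to 1416 bp, and 4 far longer copies of 4511 to 4515 bp. The longest copy apart from those 4 was 1547 bp. The median distance to the nearest gene was 528 bp, and 23 copies overlapped a gene model. As annotated, 25 pairs of copies overlapped each other by a few bases, so neighbouring copies are not always separate insertions.

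Summed over all copies, the levels of both lines overlapped when scaled with TMM factors, and the lines separated when scaled by total counts. Their summed level was 7119, 7899 and 7249 CPM (scaled with TMM factors) in wild-type replicates 1 to 3 and 7575, 8846 and 7203 CPM in mutant replicates 1 to 3. These groups overlapped. The mean log2 difference, mutant minus wild type, was 0.081 (two-sided exact permutation test over 3 against 3 libraries, p = 0.6, where 0.1 is the smallest possible), and without mutant replicate 2 it was -0.0071. Scaled by total counts alone it was 0.14 (exact permutation p = 0.1). The share of all counts in these copies was 0.698%, 0.753% and 0.730% for wild-type replicates 1 to 3 and 0.759%, 0.882% and 0.766% for mutant replicates 1 to 3, with no overlap. Set against the 1485 interior DNA transposon copies with other family labels, the ratio of both sums was 0.294 ± 0.0108 in wild-type and 0.304 ± 0.00114 in mutant libraries (SD, n = 3 each), with overlapping values (exact permutation p = 0.4). Against the 887 interior Harbinger copies, another group of DNA transposons, the ratio was 0.616 ± 0.0143 and 0.640 ± 0.0159 (n = 3 each, exact permutation p = 0.2). No permutation test of 3 against 3 libraries can reach 0.05, so these values describe the libraries and do not show that the copies and their relatives behaved alike.

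None of the 5 repeat families passed the test when its counts were summed over interior copies (edgeR quasi-likelihood test, adjusted over 5019 families and genes, of which 1.32% were raised and 1.14% lowered). Summing puts all counts of a family in 1 value. How reads that fit several copies were counted is not known, so they could be missing from it or counted more than once. The summed level of rnd-1_family-32 was 3274 ± 106 CPM in the wild type and 3347 ± 326 CPM in the mutant (SD, n = 3 each; log2 fold change 0.062, SE 0.16, edgeR adjusted p = 0.90). That of rnd-1_family-3 was 2568 ± 260 and 2820 ± 395 CPM (0.17, SE 0.18, edgeR adjusted p = 0.72), and that of rnd-1_family-7 was 1536 ± 71.7 and 1656 ± 160 CPM (0.14, SE 0.15, edgeR adjusted p = 0.71). The small families rnd-1_family-12 (34.9 and 41.2 CPM) and rnd-1_family-13 (9.46 and 9.18 CPM) had the same outcome. The log2 fold changes come from the fit of family counts, with its own TMM factors. The CPM use the factors of the fit of single copies. For rnd-1_family-13 both differ in sign, with a fitted log2 fold change of 0.023. Without mutant replicate 2 the log2 fold change was -0.041 for rnd-1_family-32, 0.035 for rnd-1_family-3, 0.040 for rnd-1_family-7 and 0.15 for rnd-1_family-12. In every family the values of both groups overlapped. Before adjustment no family reached p under 0.05, and neither DESeq2 nor limma voom called any.

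**Figure D1:**
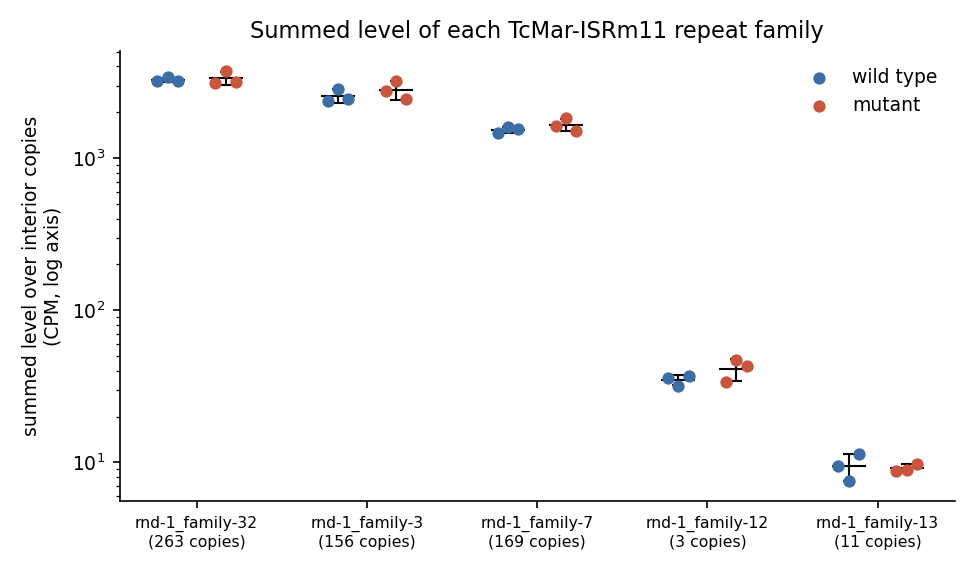
Summed level (CPM, log axis) of the interior copies of each repeat family in each library; points are the 3 wild-type and 3 mutant libraries, black bars the mean ± SD. In all 5 families the points of both groups overlap, and mutant replicate 2 is the highest of the 6 points in the 4 families other than rnd-1_family-13.

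Single copies differed more than these sums show. Of the 602 copies 326 had enough reads to be tested and 276 did not, with a mean of at most 1.41 CPM; 27 copies had no read in any library. In the mutant 15 copies rose and 3 fell (edgeR, p adjusted after Benjamini and Hochberg over 7641 rows for genes and TE copies together, called under 0.05), which is 4.60% and 0.920% of those tested. Over all 7641 rows 3.4% rose and 1.54% fell, and over all 2776 tested TE copies 7.1% rose and 1.04% fell. The share of raised copies therefore lay between that of all rows and that of all TE copies, which include the copies near chromosome ends. Among the 754 tested interior DNA transposon copies with other family labels 39 rose (5.17%) and 9 fell. The median log2 fold change was 0.018 over the 326 copies, -0.011 over all rows and 0.067 over all TE copies. In 48 copies (14.7%) all mutant libraries lay above all wild-type libraries and in 26 (7.98%) below, against 12.1% and 11.1% of all rows and 19% and 8.18% of TE copies. Without mutant replicate 1 only 9 copies rose. Lowered copies numbered 0 when wild-type replicate 1 or wild-type replicate 2 was left out. When mutant replicate 1 was left out there was 1, which is not among the 3.

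Raised copies were weakly read in the wild type. Their wild-type means ran from 0.244 to 13.3 CPM, with 12 of 15 below 5 CPM and 7 below 1 CPM, while the median of the tested copies was 7.56 CPM. In the mutant they ran from 2.19 to 52.6 CPM. The summed level of the 15 copies was 49.5 ± 5.54 CPM in the wild type and 215 ± 30.4 CPM in the mutant, a description only, since these copies were picked by their change. The summed level of the 587 other copies was 7373 ± 414 and 7659 ± 831 CPM (n = 3 each), with overlapping groups. Of the tested copies 10 had under 10 counts in each wild-type library and were kept by the low-count filter through the mutant alone; 6 of the 15 raised copies are among them. Such copies had to be higher in the mutant to be tested at all. The raised copy TE_homo_1867, with 10, 10 and 3 counts in wild-type replicates 1 to 3, also passed the filter only with mutant libraries.

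**Figure D2:**
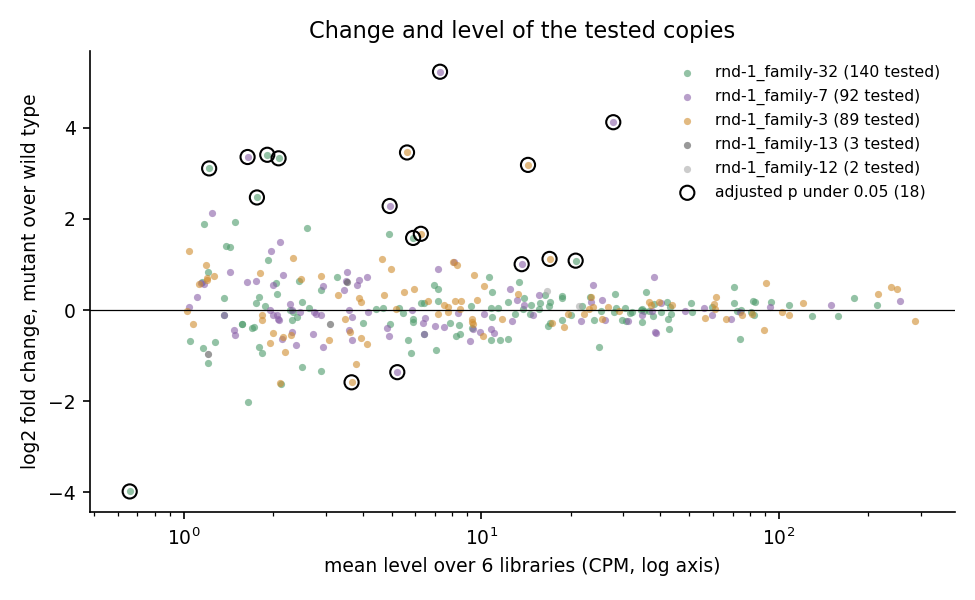
Log2 fold change (mutant over wild type) against the mean level over all 6 libraries (CPM, log axis) for the 326 tested copies, coloured by repeat family, with black circles around the 18 copies that passed the test. The circled copies have means from 0.659 to 27.8 CPM.

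The largest rises came from all 3 large families. The copy with the largest log2 fold change was TE_homo_636 of rnd-1_family-7, 1506 bp long on chromosome 5 (205325 to 206830, plus strand, build ASM9120v1). It had 4, 5 and 0 counts in wild-type replicates 1 to 3 and 123, 163 and 123 in mutant replicates 1 to 3, so the groups lay far apart. Its level went from 0.362 ± 0.329 to 14.2 ± 4.77 CPM (SD, n = 3; log2 fold change 5.23, SE 0.59, edgeR adjusted p = 0.0012). TE_homo_1608, a 547 bp copy of the same family on chromosome 10 (64200 to 64746, minus strand), had 24, 30 and 20 counts in wild-type replicates 1 to 3 and 549, 515 and 479 in the mutant. It rose from 3.01 ± 0.727 to 52.6 ± 8.93 CPM (4.12, SE 0.23, edgeR adjusted p = 1.9e-05), the lowest adjusted p among the 602 copies. The copy TE_homo_1607 of rnd-1_family-3 (63487 to 64210, minus strand) adjoins it, overlapping it by 11 bp. TE_homo_1607 had 16, 33 and 20 counts against 220, 333 and 183, and rose from 2.85 ± 1.26 to 25.9 ± 12.5 CPM (3.19, SE 0.43, edgeR adjusted p = 0.0033). Both copies are annotated on the same strand and upstream of the same gene. The libraries are unstranded, and whether a single transcript gave the reads of both was not tested.

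TE_homo_1867 of rnd-1_family-3 (chromosome 11, 133226 to 134375, minus strand) had 10, 10 and 3 counts in wild-type replicates 1 to 3 and 103, 93 and 110 in the mutant. Its mean level rose, from 0.924 ± 0.480 CPM to 10.3 ± 0.847 CPM (n = 3 each; log2 fold change 3.46, SE 0.39, edgeR adjusted p = 0.0012). Among copies of rnd-1_family-32 the largest rises were in 3 copies on 3 chromosomes. TE_homo_209 (chromosome 2, 250361 to 251083, plus strand) had 7, 1 and 0 counts against 37, 32 and 35. It rose with a log2 fold change of 3.41 (SE 0.69, edgeR adjusted p = 0.025), and the call was lost without wild-type replicate 2 (0.076), mutant replicate 1 (0.083), mutant replicate 2 (0.076) or mutant replicate 3 (0.052). TE_homo_3121 (chromosome 16, 128001 to 128733, minus strand) had 3, 5 and 1 counts against 41, 36 and 35 (3.33, SE 0.49, edgeR adjusted p = 0.0048). The groups did not overlap in any of these copies, and the lowest mutant library exceeded the highest wild-type library by several times.

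The short copy TE_homo_1249 of rnd-1_family-32 (chromosome 8, 399832 to 400134, 303 bp, minus strand) had 2 counts in each wild-type library and 24, 16 and 26 in the mutant libraries. The ratio of summed counts, mutant over wild type, was 9.13 with a 95% counting interval of 3.98 to 25.8 (edgeR adjusted p = 0.0046). This interval rests on counts pooled over the 3 libraries of each group. It covers counting error only and leaves out the spread between samples. The reads also carried no molecular identifiers. TE_homo_227 of rnd-1_family-7 (chromosome 2, 298434 to 299909, minus strand) had 4, 3 and 0 counts in the wild type against 35, 20 and 36. It rose with a log2 fold change of 3.36 (SE 0.62, edgeR adjusted p = 0.015), a call lost without wild-type replicate 1 (0.052) or mutant replicate 1 (0.066). The other 7 raised copies had log2 fold changes of 1.01 to 2.47 and edgeR adjusted p of 0.0047 to 0.046. The raised copies numbered 6 in rnd-1_family-32, 5 in rnd-1_family-7 and 4 in rnd-1_family-3, or 4.29%, 5.43% and 4.49% of the tested copies of each family. The difference between families was not tested.

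The 3 lowered copies came one from each large family. TE_homo_4173 of rnd-1_family-32 (chromosome 19, 363500 to 364229, minus strand) had 11, 11 and 9 counts in wild-type replicates 1 to 3 and 0, 0 and 2 in the mutant. The ratio of its summed counts, wild type over mutant, was 18.7 with a 95% counting interval of 4.75 to 161 (edgeR adjusted p = 0.025). This interval, too, leaves out the spread between samples. With under 10 counts in each mutant library, TE_homo_4173 was kept by the low-count filter through the wild type alone. It therefore had to be lower in the mutant to be tested at all. TE_homo_3779 of rnd-1_family-3 (chromosome 18, 187305 to 188707, plus strand) fell from 44, 51 and 40 counts to 19, 22 and 12, or from 5.49 ± 0.912 to 1.85 ± 0.774 CPM (log2 fold change -1.58, SE 0.37, edgeR adjusted p = 0.047). TE_homo_2190 of rnd-1_family-7 (chromosome 12, 326797 to 328298, minus strand) fell from 77, 62 and 48 counts to 28, 29 and 29, or from 7.52 ± 1.30 to 2.94 ± 0.497 CPM (-1.36, SE 0.29, edgeR adjusted p = 0.028). In all 3 every mutant library lay below every wild-type library. The call of TE_homo_3779 was lost in 5 of the 6 runs without 1 library (edgeR adjusted p up to 0.17 without mutant replicate 1; called without mutant replicate 2) and when libraries were scaled on nuclear genes (0.060). The call of TE_homo_2190 was lost without wild-type replicate 1 (0.14), wild-type replicate 2 (0.070), mutant replicate 1 (0.13) or mutant replicate 3 (0.089). TE_homo_4173 lost its call without wild-type replicate 2 (0.070), wild-type replicate 3 (0.064) or mutant replicate 2 (0.080), at log2 fold changes of -4.05 to -3.58, and had too few reads to be tested in the 3 other runs without 1 library.

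**Figure D3:**
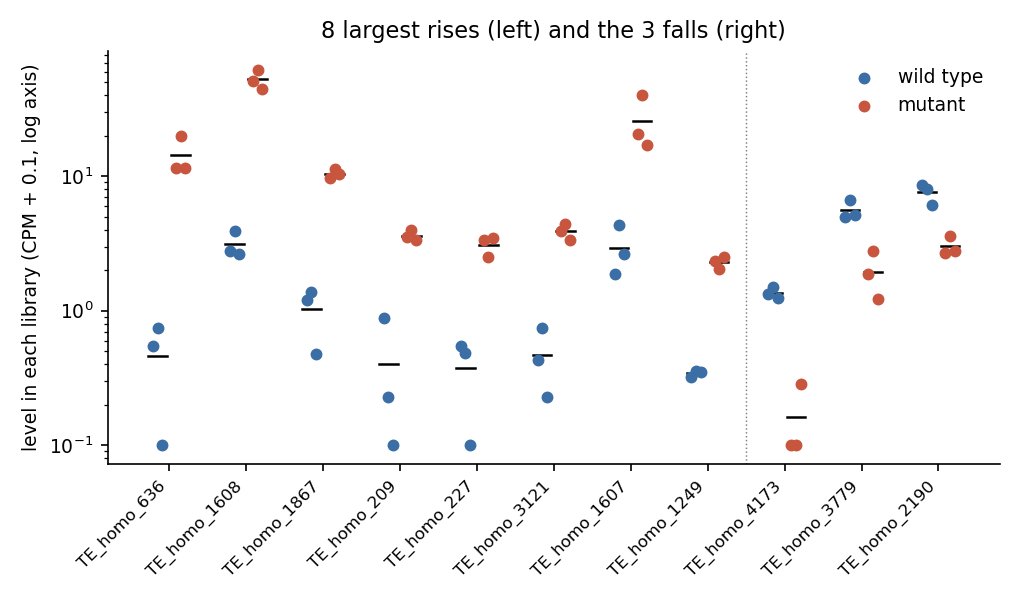
Level in each library (CPM + 0.1, log axis) of the 8 copies with the largest rises, left of the dotted line, and of the 3 lowered copies, right of it; black lines are group means. In each of the 11 copies the 3 mutant points lie on 1 side of the 3 wild-type points, and points at 0.1 had no count.

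Raised copies often stood beside other raised TE copies. Within 5000 bp of the 15 raised copies 23 other TE copies were tested, counting each once, and 12 of these rose while none fell. Of the 12, 4 belong to the raised copies themselves and 8 carry other family labels, and 10 lay within 600 bp. Of the 15 copies, 8 (53.3%) had a raised TE copy in that window, compared with 22 of the 311 other tested copies (7.07%). The window was chosen after the values were seen, these shares were not tested, and reads of 1 transcript over adjoining or overlapping copies would count several times. Some of the 12 were barely read in the wild type, such as TE_homo_4133 and TE_homo_4134 on chromosome 19, at 0.128 CPM each. The low-count filter kept these through the mutant, so they could have risen but not fallen. Counts and shares of raised neighbours are in part set by this filter. At chromosome 5, TE_homo_637, a short Gypsy-type fragment of an LTR retrotransposon, lies 40 bp from TE_homo_636 and went up from 0.375 to 6.97 CPM (log2 fold change 4.20, edgeR adjusted p = 0.0044). At chromosome 10, TE_homo_1609, a 368 bp Copia-type LTR copy, lies 58 bp from TE_homo_1608 and rose from 2.92 to 33.2 CPM (3.51, edgeR adjusted p = 2.2e-04).

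Stretches with several raised copies also occurred at 4 further places. Next to TE_homo_3121 on chromosome 16, the Harbinger copy TE_homo_3119 (2605 bp, 266 bp away) rose from 1.12 to 7.83 CPM. The Gypsy copy TE_homo_3118, which overlaps TE_homo_3119 as annotated, rose from 10.7 to 30.5 CPM. A second copy of that Harbinger family, rnd-4_family-46, lies 4182 bp from TE_homo_1867 on chromosome 11; this copy, TE_homo_1868, rose from 1.46 to 10.7 CPM. On chromosome 8 TE_homo_1249 is followed after 114 bp by TE_homo_1250 of rnd-1_family-7, named here after its values were seen, which had 11, 10 and 20 counts in wild-type replicates 1 to 3 and 113, 60 and 73 in the mutant; its call was lost without wild-type replicate 1 (edgeR adjusted p = 0.053). On chromosome 19 TE_homo_4135, also named after its values were seen, rose from 13.3 ± 3.45 CPM to a mean of 28.3 ± 0.431 CPM (n = 3 each; log2 fold change 1.09, SE 0.22, edgeR adjusted p = 0.021), a call lost without wild-type replicate 2 (0.054), mutant replicate 1 (0.079), mutant replicate 2 (0.056) or mutant replicate 3 (0.055). It lies among 3 raised neighbours, of which the Harbinger copy TE_homo_4136, 27 bp away, went from 21.3 to 54.1 CPM. The others, TE_homo_4133 and TE_homo_4134, overlap each other as annotated, and TE_homo_4134 also overlaps TE_homo_4135. The fall of TE_homo_4173 likewise had a lowered neighbour, the Harbinger copy TE_homo_4172 at 265 bp, which went from 11.5 to 2.59 CPM (-2.14, edgeR adjusted p = 0.0044).

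**Figure D4:**
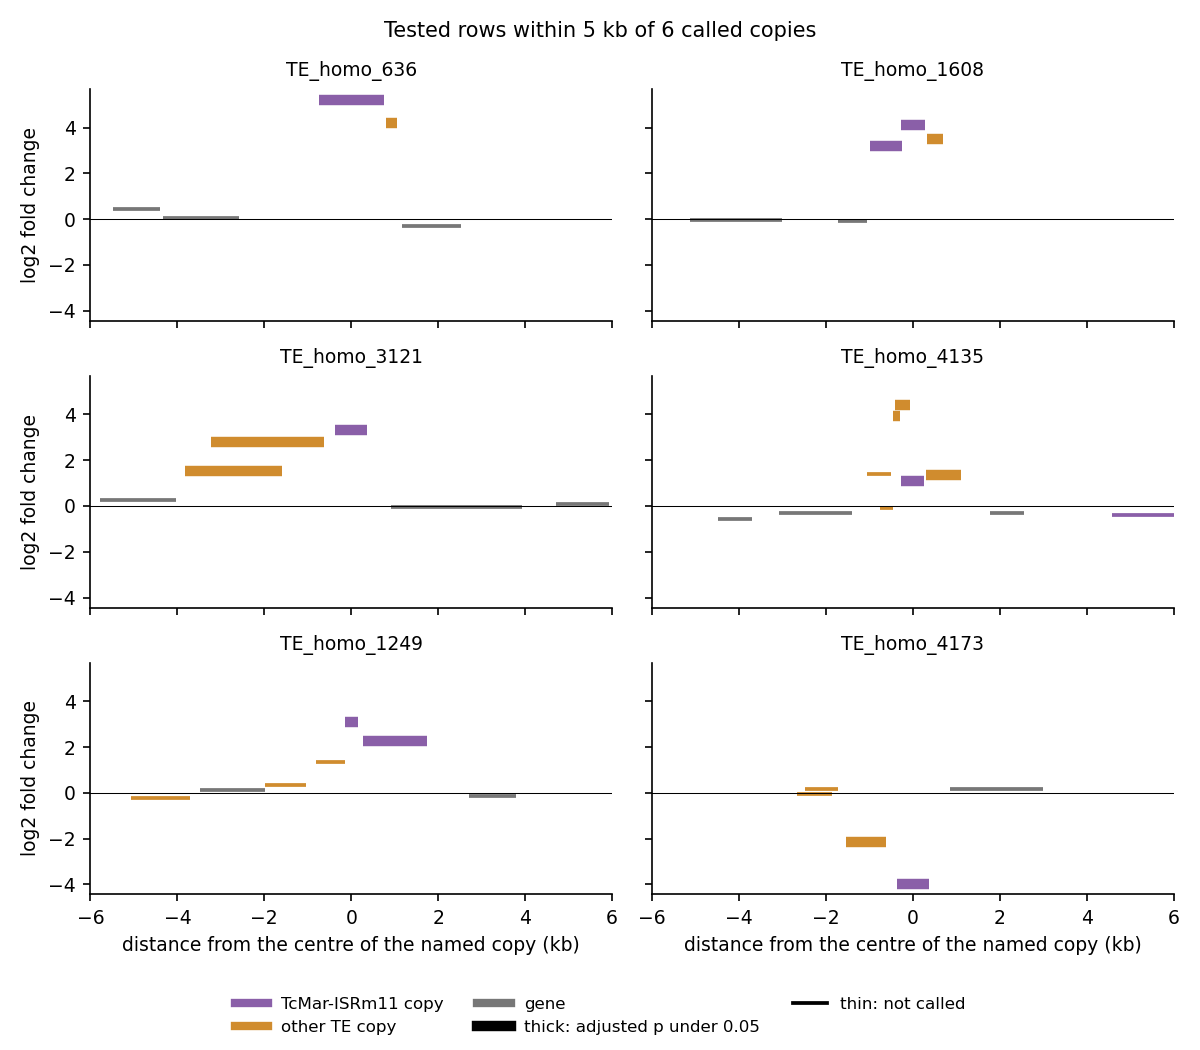
Log2 fold change (mutant over wild type) of every tested row within 5000 bp of 6 called copies, drawn at its place relative to the centre of the named copy (kb); purple bars are TcMar-ISRm11 copies, orange other TE copies and grey genes, thick where adjusted p was under 0.05. In the first 5 panels thick purple bars lie above 0 beside at least 1 other thick bar, in the last they lie below 0, and the thin grey gene bars lie between -0.59 and 0.44.

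The nearest genes did not share these changes at the threshold used. The 18 called copies had 17 distinct nearest genes, of which 16 were tested and none passed (edgeR; before adjustment 2 were under 0.05; DESeq2 called 0 and so did limma voom). The lowest adjusted p was 0.16 and the largest log2 fold change in either direction 0.41. CME073C, 417 bp from TE_homo_636, had 199 ± 43.9 CPM in the wild type and 164 ± 19.8 CPM in the mutant (SD, n = 3 each). CMJ020C, 82 bp from TE_homo_1607, had 42.9 ± 1.81 and 41.0 ± 3.74 CPM. CMK045C beside TE_homo_1867 had 100 ± 8.14 and 118 ± 3.14 CPM, with the mutant libraries above the wild-type libraries (log2 fold change 0.23, edgeR adjusted p = 0.26). CMR070C beside the lowered TE_homo_3779 had 233 ± 7.57 and 220 ± 6.05 CPM, and CMS141C beside TE_homo_4173 had 63.9 ± 5.41 and 70.8 ± 6.95 CPM. CMB088C, CMB105C, CMP049C and CMH158C, near the other named rises, had log2 fold changes of -0.12 to 0.11, and CML139C beside TE_homo_2190 had too few reads to be tested.

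Among all 45 tested genes within 5000 bp of a called copy, 2 rose and 1 fell. Counted once for each copy, 2 of 44 genes around the 15 raised copies rose (4.55%) and 1 fell. Around the 311 other tested copies 5 of 1059 rose (0.472%) and 18 fell. A raised gene lay in the window of 13.3% of the raised copies and 1.61% of the others. The window was chosen with the values known, and these shares were not tested. CMT547C, 2104 bp from the raised TE_homo_4817 of chromosome 20, rose from 170 to 354 CPM (log2 fold change 1.06, edgeR adjusted p = 0.0012). CMB087C, 2338 bp from TE_homo_209, rose from 90.8 to 127 CPM (0.49, edgeR adjusted p = 0.025), and CMB107C, 2173 bp from TE_homo_227, fell from 34.1 to 18.7 CPM (-0.87, edgeR adjusted p = 0.048). These 3 genes were named after their values were seen. The 602 copies had 558 distinct nearest genes, of which 540 were tested; 4 rose (0.741%) and 8 fell (1.48%). Of all 4677 tested nuclear genes 1.3% rose and 1.86% fell, so neither share exceeded that of nuclear genes in general. Across 323 tested copies with a tested nearest gene, Spearman's rho between both log2 fold changes was 0.14. It was 0.37 over 9 copies that overlap the gene and 0.22 over the 78 copies at 1 to 250 bp from it. Over the 176 copies at over 250 and up to 1000 bp it was 0.060, and over the 60 copies farther away 0.16. These are weak relations across copies that share libraries, and many copies had few reads. Of the 18 called copies 15 lay on the upstream side of the nearest gene, the side of its start codon, as did 56.4% of all tested copies.

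By distance to the nearest gene, summed levels overlapped between the lines in each class, and with 3 libraries a group no class could have passed 0.05. The 23 copies that overlap a gene had 820 ± 201 CPM in the wild type and 1072 ± 231 CPM in the mutant (SD, n = 3 each; mean log2 difference 0.39, exact permutation p = 0.2, adjusted p = 0.93 over 8 length and distance classes). The 126 copies at 1 to 250 bp had 1626 ± 110 and 1606 ± 162 CPM, the 303 copies at over 250 and up to 1000 bp had 3769 ± 118 and 4034 ± 406 CPM, and the 150 copies farther away had 1208 ± 27.4 and 1163 ± 111 CPM. For these 3 classes the exact permutation p was 0.4 to 1. The class at over 250 and up to 1000 bp had a mean log2 difference of 0.094, which was 0.010 without mutant replicate 2 and 0.15 when scaled by total counts alone (exact permutation p = 0.1). Without mutant replicate 2 the difference was 0.25 in the overlapping class, -0.098 at 1 to 250 bp and -0.13 beyond 1000 bp. Raised copies numbered 0 of 11 tested in the overlapping class, 3 of 79 at 1 to 250 bp, 8 of 176 at over 250 and up to 1000 bp and 4 of 60 beyond. In edgeR no tested copy of the overlapping class reached an unadjusted p under 0.05. Neither DESeq2 nor limma voom called one, with 3 and 2 of the 11 under 0.05 before adjustment. The 2 lowered copies TE_homo_3779 and TE_homo_2190 lay at 143 and 126 bp from a gene.

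Summed levels by copy length were compared with the same limit on the smallest p. The 225 copies of 1000 bp and more had 3726 ± 309 CPM in the wild type and 4008 ± 465 CPM in the mutant (SD, n = 3 each; exact permutation p = 0.5). The 278 copies of 500 to under 1000 bp had 3092 ± 61.0 and 3233 ± 351 CPM, the 78 copies of 200 to under 500 bp had 592 ± 62.1 and 620.3 ± 77.7 CPM, and the 21 copies under 200 bp had 12.4 ± 1.24 and 12.9 ± 1.96 CPM (exact permutation p of 0.6 to 1). The groups overlapped in all of these classes. Without mutant replicate 2 the mean log2 difference of the longest class went from 0.10 to 0.016, that of the class of 500 to under 1000 bp from 0.059 to -0.030, that of the class of 200 to under 500 bp from 0.064 to -0.035, and that of the shortest class from 0.050 to 0.0088. Raised copies numbered 7 of 143 tested among the longest, 7 of 145 at 500 to under 1000 bp, 1 of 36 at 200 to under 500 bp and 0 of 2 under 200 bp. Of the 21 shortest copies 10 had no read in any library. Calls were also counted by the preferred length of each family, with no test. In rnd-1_family-32, 4 of 92 tested copies of 701 to 753 bp rose and 2 of 48 others, and in rnd-1_family-7, 4 of 55 tested copies of 1417 to 1547 bp rose and 1 of 37 others. In rnd-1_family-3 1 of 28 tested copies of 1063 to 1159 bp and 2 of 40 copies of 1316 to 1416 bp rose.

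**Figure D5:**
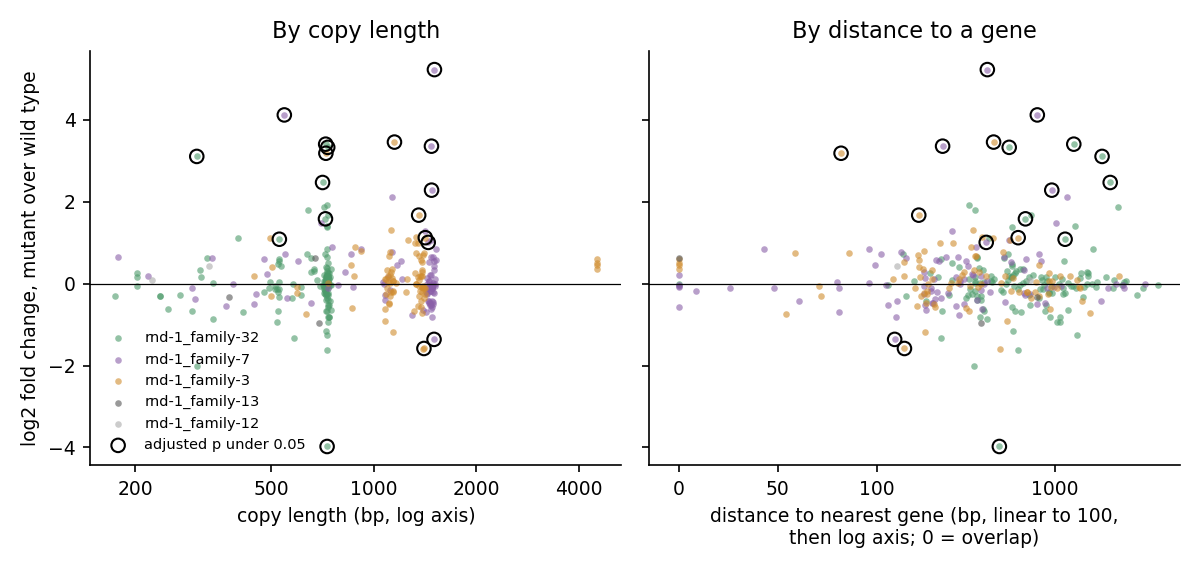
Log2 fold change (mutant over wild type) of the 326 tested copies against copy length (left, bp, log axis) and distance to the nearest gene (right, bp, linear to 100 and log beyond), coloured by family, with black circles around the 18 called copies. Called copies lie between 303 and 1506 bp in length, none overlaps a gene, and the 4 copies of 4511 to 4515 bp stand apart at the right of the left panel, above 0 and not called.

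The 4 longest copies, all of rnd-1_family-3, each held a gene model and were among the most strongly read. The 4 are TE_homo_314 (chromosome 3, 172896 to 177406), TE_homo_1292 (chromosome 8, 554831 to 559344), TE_homo_2426 (chromosome 13, 246459 to 250969) and TE_homo_3679 (chromosome 17, 1080456 to 1084970). In each, a gene of 1887 or 1888 bp on the strand of the copy begins 741 to 747 bp after the start of the copy and ends 1877 to 1883 bp before its end. These genes are CMC074C, CMH216C, CMM108C and CMQ418C, and the annotation used here gives them no name. With lengths and inner positions so alike, reads of these copies may fit several of them, and the 4 values are not independent. TE_homo_1292 had 1666, 2163 and 1330 counts in wild-type replicates 1 to 3 and 3424, 2718 and 2371 in the mutant, or 210 ± 58.9 and 289 ± 59.3 CPM (log2 fold change 0.46, SE 0.21, edgeR adjusted p = 0.31). The log2 fold changes of the other 3 were 0.35 to 0.59, and no copy passed in edgeR, DESeq2 or limma voom. Their summed level was 589, 887 and 530 CPM in wild-type replicates 1 to 3 and 964, 1114 and 680 CPM in mutant replicates 1 to 3, so that wild-type replicate 2 lay above mutant replicate 3 (exact permutation p = 0.2). They took 7.31% to 12.7% of the summed level of all 602 copies, and without them that sum had a mean log2 difference of 0.038 between the lines.

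The genes inside had higher values per kilobase than the rows of the copies around them, which are divided by the full copy length, gene included. Per kilobase, CMC074C had 277 CPM in the wild type and 356 CPM in the mutant, while the row of TE_homo_314 had 16 and 24.2. CMH216C had 217 and 269 CPM per kilobase, and TE_homo_1292 had 46.6 and 64.0. For CMM108C the values were 172 and 212 against 43.6 and 62.1 for TE_homo_2426, and for CMQ418C they were 157 and 186 against 42.0 and 53.5 for TE_homo_3679. A copy that contains a gene cannot hold fewer reads than that gene if all reads are counted in both, and each copy's row held fewer counts than its gene. Reads inside the gene were therefore not all counted for the copy, and the values per kilobase do not compare how densely both were read. None of the 4 genes passed the test (edgeR log2 fold changes 0.24 to 0.36, lowest adjusted p 0.37; no unadjusted p under 0.05, and 0 calls by DESeq2 or limma voom).

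The other 2 of the 5 most abundant copies overlap no gene. TE_homo_3698 of rnd-1_family-3 (chromosome 17, 1158384 to 1159793), 191 bp upstream of CMQ447C, had 2614, 3137 and 1950 counts in wild-type replicates 1 to 3 and 3407, 2110 and 2356 in the mutant. Its log2 fold change was -0.25 (SE 0.20, edgeR adjusted p = 0.59), and the groups overlapped. TE_homo_1028 of rnd-1_family-7 (chromosome 7, 304331 to 305791), 346 bp upstream of CMG119C, had 238 ± 23.0 and 274 ± 37.0 CPM (0.20, SE 0.13), and did not pass. The 5 most abundant copies together took 13.2% to 19.5% of the summed level of the 602 copies. Copies of 1 family differed widely in level. In rnd-1_family-32 the wild-type level per kilobase ran from 0 to 809 CPM with a median of 1.69, in rnd-1_family-3 from 0 to 222 with a median of 1.89, and in rnd-1_family-7 from 0 to 163 with a median of 1.43.

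The bound of 20000 bp from a chromosome end left out 4 TcMar-ISRm11 copies, at 13857 to 19829 bp from an end. TE_homo_2098 of rnd-1_family-7 (chromosome 11, 835981 to 837319) had 15, 12 and 24 counts in wild-type replicates 1 to 3 and 100, 107 and 125 in the mutant. TE_homo_3380 of the same family had 0 counts in wild-type replicates 1 to 3 and 2, 3 and 2 in the mutant, TE_homo_2095 had 2 counts in all, and TE_homo_3709 had 48, 23 and 49 counts against 37, 24 and 29. Of the 4 copies just inside, at 20877 to 26971 bp, TE_homo_2862 had 1 count in each wild-type library and 13, 9 and 12 in the mutant, and TE_homo_3078 had 7, 9 and 4 against 21, 33 and 1. TE_homo_566 had 1 count in all and TE_homo_3720 had 19, 17 and 11 against 20, 35 and 31. The called copy nearest to an end, TE_homo_1607, lay 63486 bp from it.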

How the data were processed

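Per the labels' protocols, RNA was poly(A) enriched and libraries were unstranded. Per the submitters' processing notes, Trim Galore and STAR were used, without versions; which program counted reads, and how it treated those that fit several places, is not given in the sources used here. The authors deposited raw read counts per gene and TE copy, one table per library. The build is ASM9120v1 (per the file headers of the gene annotation). EDTA is named as the source on each line of the deposited TE annotation. Positions count from 1.

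Groups and replicate numbers come from the titles. Counts were fitted with edgeR 4.0.16 (R 4.3.3) over all genes and TE copies: filterByExpr (minimum count 10, minimum total 15), TMM scaling, glmQLFit and glmQLFTest, Benjamini-Hochberg adjustment over 7641 rows, called under 0.05. Family counts were summed over interior copies and fitted with all genes and the other families. CPM use TMM-scaled library sizes; standard errors come from the F statistic. Sums were compared with two-sided exact permutation tests (scipy 1.17.1). Distance is the gap in bp to the nearest gene model, 0 for overlap. The fit was tested on simulated counts. Named were the 8 largest rises and up to 8 falls among called copies, the 5 most abundant, the 3 longest tested (4 with a tie), families with at least 5 tested or any called copies (the 2 smaller families are given as well), and the nearest genes of named called copies. The members, lists and tests were chosen with earlier results of these data known. Alternatives were other scalings, filters and tools (DESeq2 1.42.0, limma 3.58.1 voom), a replicate block, each library left out, and other bounds on distance and length.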

Additional observations from a re-analysis of the deposited data

How the results depend on the processing

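The 15 raised copies included 8 that were called in all 14 alternative fits over all rows, and none of the 3 lowered copies was. Raised copies numbered 15 to 22 under other scalings, filters and tools, and all 15 were among the 22 of DESeq2. Without 1 library, raised copies numbered 9 to 16, lowered copies 0 to 2, raised nearest genes 2 to 4 and lowered nearest genes 2 to 9. DESeq2 called 7 lowered copies, 7 raised nearest genes and 19 lowered nearest genes. The shares of all rows and of all nuclear genes that DESeq2 called are not given here. The DESeq2 counts therefore cannot be set against the edgeR shares above. Of copies over 500 bp from a gene, a smaller set by construction, 9 rose and 0 fell. Same-numbered replicates had correlations of deviations of 0.0032, 0.14 and 0.26, so the numbers were not taken to pair the samples; with replicate number as a block, 13 copies rose (TE_homo_209 was not among them, adjusted p = 0.052), 0 fell, and 2 nearest genes rose and 7 fell.

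No family passed its edgeR test under any alternative run. Sums, ratios and classes were compared by permutation tests that cannot reach 0.05, so these say nothing about stability; the smallest possible p of 0.1 was reached by all copies (0.14) and copies at over 250 and up to 1000 bp (0.15) under total counts, and by the ratio to Harbinger copies (0.056) with a bound of 10000 bp. Without 1 library the lowest possible permutation p is 0.2. It was reached without mutant replicate 2 at 500 to under 1000 bp (-0.030) and beyond 1000 bp from a gene (-0.13). Without wild-type replicate 2 the ratios to other DNA (0.079) and Harbinger copies (0.065) reached it. So did overlapping copies (0.58) and those at over 250 and up to 1000 bp (0.11). Without mutant replicate 3 the ratio to Harbinger copies (0.071), overlapping copies (0.57) and copies under 200 bp (0.18) did. The cause of the changes of sign below was not tested. Only copies over 500 bp from a gene gave log2 differences of -0.075 for rnd-1_family-13, -0.011 for rnd-1_family-3, -0.0059 for the ratio to other DNA copies and -0.00074 for the ratio to Harbinger copies, and without copies that overlap a gene rnd-1_family-13 had -0.26. Scaling by total counts gave 0.038 for copies at 1 to 250 bp and 0.00059 beyond 1000 bp, and scaling on nuclear genes gave 0.015 for the former. Without 1 library, log2 differences ran from -0.14 to 0.20 for rnd-1_family-13, -0.041 to 0.12 for rnd-1_family-32, -0.0071 to 0.14 for all copies, -0.039 to 0.18 under 200 bp, -0.035 to 0.14 at 200 to under 500 bp, -0.030 to 0.10 at 500 to under 1000 bp and -0.098 to 0.050 at 1 to 250 bp from a gene. Without the 4 long copies, an alternative chosen after seeing the data, rnd-1_family-3 had 0.020. Depth limits the calls: 276 copies had too few reads to be tested.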
